A study of Homo sapiens with 2 samples.

Results

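The FOXO factors and FOXO-linked stress genes are a set of 10 genes chosen by name and role, with their responses in these arrays already known. They are the transcription factor genes FOXO1, FOXO3 and FOXO4, the sestrin genes SESN1, SESN2 and SESN3, and the growth arrest and stress genes CCNG2, DDIT4, TXNIP and CITED2. All 10 were measured, out of 19775 genes on the array, and 30 probe sets were annotated to exactly 1 of them. A further 3 probe sets shared between FOXO3 and its near-copy FOXO3B were left out.

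The samples were IL4-treated and untreated H2228 cells, a single human lung adenocarcinoma line, which harbours EML4-ALK variant 3 in both conditions. According to the series description, IL4, a cytokine that signals through JAK kinases and STAT6, was given at 100 ng/mL for 30 min. The sample labels also mention transfections with EML4-ALK plasmids, siRNAs or controls, and do not state whether these 2 cultures had been transfected. With 1 Affymetrix U133 Plus 2.0 array per condition, no test could be made, and every value below is a log2 expression value or a log2 difference (IL4 minus untreated) between 2 arrays, without an error between cultures.

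FOXO proteins are forkhead transcription factors. When PI3K and AKT are active, AKT phosphorylates them, they bind 14-3-3 proteins and leave the nucleus. When PI3K and AKT are low, they enter the nucleus and raise genes of growth arrest, stress defence and metabolism. Sestrins and DDIT4 restrain the growth kinase complex mTORC1, CCNG2 slows the cell cycle, TXNIP binds thioredoxin and limits glucose uptake, and CITED2 competes with HIF factors for their coactivators. The array measures mRNA, so the phosphorylation and the place of FOXO proteins in the cell were not measured.

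Promoters of the 5 stress genes with the largest differences or a forkhead match are shown because the set is defined by its link to FOXO factors. Sequences are 300 bases from RefSeq on GRCh38.p14, 250 before and 50 after the most upstream start listed for the gene, and all 10 genes were found. Capitals mark the forkhead letters GTAAACA (or TGTTTAC on the other strand) and the HIF core ACGTG (or CACGT), which also lies inside the E-box CACGTG.
SESN3, chr11:95232426-95232725, minus strand: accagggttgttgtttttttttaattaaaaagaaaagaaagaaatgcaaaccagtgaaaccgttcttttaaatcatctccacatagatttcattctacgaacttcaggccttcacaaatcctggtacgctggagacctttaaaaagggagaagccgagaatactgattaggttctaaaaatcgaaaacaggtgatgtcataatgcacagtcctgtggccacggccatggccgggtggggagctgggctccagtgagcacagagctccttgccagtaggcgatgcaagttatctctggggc
CCNG2, chr4:77156957-77157256, plus strand: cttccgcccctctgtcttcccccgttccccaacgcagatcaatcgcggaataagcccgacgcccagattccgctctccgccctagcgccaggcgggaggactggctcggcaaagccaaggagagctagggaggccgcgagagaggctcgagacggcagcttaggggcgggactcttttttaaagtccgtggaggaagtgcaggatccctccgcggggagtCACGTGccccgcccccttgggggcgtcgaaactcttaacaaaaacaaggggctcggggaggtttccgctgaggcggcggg
DDIT4, chr10:72273674-72273973, plus strand: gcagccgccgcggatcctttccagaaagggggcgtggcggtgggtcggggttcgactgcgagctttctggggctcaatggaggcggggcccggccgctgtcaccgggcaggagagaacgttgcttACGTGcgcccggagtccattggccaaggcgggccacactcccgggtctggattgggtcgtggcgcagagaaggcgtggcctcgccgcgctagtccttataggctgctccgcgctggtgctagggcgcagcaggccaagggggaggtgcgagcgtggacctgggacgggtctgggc
TXNIP, chr1:145996530-145996829, minus strand: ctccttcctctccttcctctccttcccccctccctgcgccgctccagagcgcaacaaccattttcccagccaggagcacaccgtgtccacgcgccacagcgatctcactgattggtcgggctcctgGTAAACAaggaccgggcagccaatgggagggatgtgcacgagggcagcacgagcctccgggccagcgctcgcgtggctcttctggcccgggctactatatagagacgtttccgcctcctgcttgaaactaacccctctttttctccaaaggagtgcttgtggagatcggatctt
CITED2, chr6:139374599-139374898, minus strand: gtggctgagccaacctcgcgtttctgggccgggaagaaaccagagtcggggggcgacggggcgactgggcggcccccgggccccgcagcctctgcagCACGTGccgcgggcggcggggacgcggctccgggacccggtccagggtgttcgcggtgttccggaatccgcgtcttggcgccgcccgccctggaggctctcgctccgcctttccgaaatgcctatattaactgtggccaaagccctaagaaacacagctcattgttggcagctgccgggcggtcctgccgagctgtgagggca
Only TXNIP and FOXO4 held the forkhead letters in any of the 18 promoters listed for the 10 genes, against 3.42% of 35116 promoters in the table. In TXNIP they began 124 bases before the start. In FOXO4 they began at base 24 after the start, within these 29 bases.
FOXO4, chrX:71095863-71095891, plus strand: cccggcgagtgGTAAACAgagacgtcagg
The HIF core lay in the most upstream promoters of CCNG2, DDIT4 and CITED2, and in 6 of the 18 listed promoters of the 10 genes, against 21.4% of all promoters. In CCNG2 and CITED2 it formed the E-box CACGTG, which 7.26% of all promoters held. The SESN3 promoter held neither motif in this window, and neither did the most upstream promoters of FOXO1, FOXO3, SESN1 and SESN2. The SESN3 promoter was the least GC-rich of the 10 most upstream promoters, with 45.0% G and C against a median of 67.5%. These matches describe letters and show no binding.

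With IL4, CITED2 and FOXO3 were higher and SESN3, DDIT4 and CCNG2 were lower by at least 1.5-fold, a log2 difference of 0.58. The other 5 genes lay within 1.5-fold. Across all 19775 genes, 3.21% were at least 1.5-fold higher and 4.39% at least 1.5-fold lower. At 2-fold, CITED2 was higher and SESN3 and DDIT4 were lower, where 1.11% of all genes were higher and 0.89% lower. Of the 30 probe sets, 4 were at least 1.5-fold higher and 9 lower, where 3.2% of all probe sets with 1 gene were higher and 3.83% lower. Because the set was chosen with these differences in view, the shares are given as background only. The differences ran between -1.74 for SESN3 and 1.25 for CITED2, with a median of -0.11, against a median of 0 over all genes. Genes of the same family therefore differed among themselves, both among the FOXO factors and among the sestrins.

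Of the 3 FOXO factor genes, only FOXO3 lay past 1.5-fold. Its brightest probe set, 224891_at, reached 9.97 on the log2 scale with IL4, against 9.32 in untreated cells. This was 1.57-fold higher, only just past 1.5-fold, and ranked 542 from the top of all genes. The 3 further probe sets of FOXO3 were also higher on the IL4 array, with log2 differences of 0.75, 0.58 and 0.25. Averaged over all 4 probe sets the log2 difference was 0.56, which is below 1.5-fold.

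FOXO1, the factor best known from insulin signalling, had 6.04 with IL4 and 6.17 in untreated cells, a log2 difference of -0.13. A second probe set gave -0.12, and a dim one, with 3.91 with IL4 and 3.75 in untreated cells, gave 0.15. FOXO4 had 4.88 with IL4 and 4.97 in untreated cells on its only probe set, both below the median of all probe sets of 5.03. Both differences are smaller than 0.25, the standard deviation of the difference between the 2 brightest probe sets of a gene. It was taken over 6056 genes with both probe sets at or above the median level, where the FOXO4 probe set did not lie. This standard deviation does not measure the error between cultures. FOXO6, the remaining gene of the family, had a log2 difference of 0.076.

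The 3 sestrin genes had unlike differences. SESN3 had 5.86 with IL4 and 7.61 in untreated cells on its brightest probe set, 225123_at. It was 3.35-fold lower and ranked 12 from the bottom of all genes. All 7 of its probe sets were lower on the IL4 array, and 5 of them by at least 1.5-fold. The 6 further probe sets were dim, with untreated values between 2.40 and 4.92, and their differences ran between -0.28 and -0.80. The size of the SESN3 difference therefore rests on 1 probe set, and its direction was the same on all of them.

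SESN2, a sestrin induced by amino acid shortage and other stresses, had 6.97 with IL4 and 6.56 in untreated cells on 223195_s_at. Its second probe set had 6.86 with IL4 and 6.52 in untreated cells. The log2 differences of 0.41 and 0.34 are less than 1.5-fold and opposite in sign to those of SESN3. SESN1, a sestrin gene known as a p53 target, had 5.40 with IL4 and 5.41 in untreated cells, a log2 difference of -0.0095 on its only probe set. Between SESN2 and SESN3, the log2 differences lay 2.15 apart.

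Among the growth arrest and stress genes, DDIT4 and CCNG2 were lower with IL4 and CITED2 was higher. DDIT4, also called REDD1, acts on mTORC1 through the TSC complex. It had 6.95 with IL4 and 8.27 in untreated cells on its only probe set, 202887_s_at. It was 2.50-fold lower and ranked 53 from the bottom. No second probe set was available to compare it with.

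CCNG2 encodes cyclin G2, an unusual cyclin that rises in cells leaving the cycle. On 202769_at it had 7.16 with IL4 and 8.14 in untreated cells, 1.97-fold lower. The probe sets 202770_s_at and 211559_s_at, also above the median level, had log2 differences of -1.01 and -0.90. The remaining pair were dim and differed in sign, with -0.43 on 228081_at and 0.24 on 1555056_at. The 3 brighter probe sets of CCNG2 thus spanned 0.11 on the log2 difference.

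CITED2 had 9.08 with IL4 and 7.83 in untreated cells on 209357_at. It was 2.37-fold higher and ranked 136 from the top. A second probe set, 207980_s_at, had 7.38 with IL4 and 6.03 in untreated cells, a log2 difference of 1.35. The third, 227287_at, had 5.72 with IL4 and 5.73 in untreated cells and did not share the increase, although it lay above the median level. The average over the 3 probe sets was 0.86.

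TXNIP had 10.22 with IL4 and 10.54 in untreated cells on 201010_s_at. Its log2 difference was -0.32, and the 2 further probe sets gave -0.43 and -0.38. All 3 probe sets were lower on the IL4 array, and none reached 1.5-fold.

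**Figure D1:**
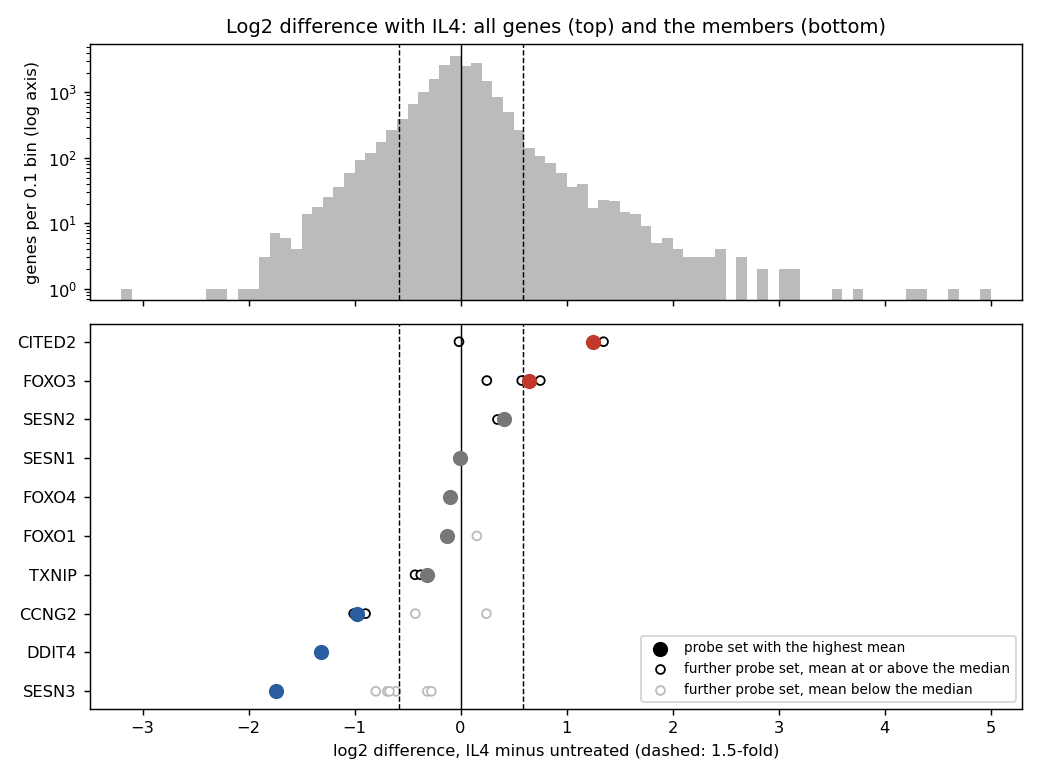
Number of genes (y axis, log scale) by log2 difference between IL4 and untreated cells (x axis) over all 19775 genes in the upper panel, and the 10 genes of the set (rows) in the lower panel. Filled points are the brightest probe set of a gene (red at least 1.5-fold higher, blue at least 1.5-fold lower), open points the further probe sets, and dashed lines mark 1.5-fold. SESN3 lies lowest at -1.74 and CITED2 highest at 1.25, with an open point of CITED2 near 0.

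Genes that work with these 10 were followed in 8 lists by known role. The lists held 196 different genes, of which 183 were measured, and some genes stood in more than 1 list. In all, 11 were at least 1.5-fold higher, 15 were at least 1.5-fold lower and 157 lay between, with a median log2 difference of 0. The shares were 6.01% higher and 8.20% lower, against 3.21% and 4.39% of all genes. Most of the linked genes, 169 of 183, lay at or above the median level, and of these 11 were higher and 14 lower, where 4.34% of all genes at that level were higher and 5.88% lower. The lists were chosen with earlier results known, so these shares describe them and were not tested.

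Genes known as FOXO targets in other cells lay on both sides of 0. Of 44 measured, 7 (15.9%) were higher and 5 (11.4%) were lower, against 3.21% and 4.39% of all genes. At or above the median level lay 35 of them, with 7 higher and 5 lower. Of all genes at that level, 4.34% were higher and 5.88% lower. The median log2 difference of the list was -0.064. CDKN1A, the gene of the cell cycle inhibitor p21, had 9.67 with IL4 and 8.20 in untreated cells. GADD45A, a growth arrest gene, had 10.86 with IL4 and 9.45 in untreated cells. The mitochondrial superoxide dismutase gene SOD2 was 2.11-fold higher and the transcription factor gene KLF6 2.06-fold higher. CDKN1B, which encodes the inhibitor p27 and is a classical FOXO target, had 8.95 with IL4 and 10.02 in untreated cells. HBP1, a repressor of cell cycle genes, was 2.06-fold lower, IGFBP1, which binds insulin-like growth factors, 1.97-fold lower and the repressor gene BCL6 1.89-fold lower. On average over their probe sets, BCL6 had -0.55 and IGFBP1 -0.49, which is less than 1.5-fold, with a dim second probe set of IGFBP1 at 2.27 on both arrays and one of BCL6 at a difference of -0.040. HBP1 averaged -0.74 over its 3 probe sets, which ran between -1.04 and -0.41. CDKN1A, GADD45A, SOD2 and CDKN1B had 1 probe set each.

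The 28 measured genes of PI3K and AKT signalling had a median log2 difference of 0.076. Of them, 2 (7.14%) were higher and 3 (10.7%) lower, against 3.21% and 4.39% of all genes. Of the 28, 27 lay at or above the median level, where 4.34% of all genes were higher and 5.88% lower. The regulatory subunit genes PIK3R3 and PIK3R1 were 2.64-fold and 1.64-fold lower, and PIK3CB, a catalytic subunit, was 1.55-fold lower. IRS2, the adaptor that couples the insulin and IL4 receptors to PI3K, had 10.42 with IL4 and 9.54 in untreated cells. It was 1.83-fold higher, with a second probe set at 0.86, and it also counts among the FOXO targets. PHLPP2, a phosphatase that acts on AKT, was 1.87-fold higher on a probe set at 8.32 with IL4 and 7.42 in untreated cells, and its second probe set held the same value, 5.10, on both arrays. An identical value was deposited for both arrays in 8.28% of all probe sets, so such a 0, here and for IGFBP1, may come from the processing and is not read as a measured lack of difference. Averaged over their probe sets, PIK3R1 and PIK3CB had -0.51 and -0.57, less than 1.5-fold. The kinase genes AKT1 and AKT2 had log2 differences of 0.19 and -0.054, and SGK1, a kinase related to AKT, had 0.069.

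Of 41 measured genes of the mTOR complexes and the amino acid sensors on which sestrins act, 0 were past 1.5-fold upwards and 2 (4.88%) downwards, near the 3.21% and 4.39% of all genes. The median was -0.069, and 27 of the 41 were below 0, where 48.1% of all genes were below 0 and 45.5% above. Of the 41, 40 lay at or above the median level, and all genes at that level had a median of -0.028. PRKAA1, a catalytic subunit gene of AMPK, had 8.21 with IL4, against 8.86 in untreated cells, which is 1.57-fold lower, but its average over 5 probe sets was -0.20. The other was DEPTOR, an mTOR inhibitor, at 4.23 with IL4 and 4.98 in untreated cells, both below the median level.

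Among 32 measured genes whose proteins modify or bind FOXO proteins, 1 (3.12%) was higher and 3 (9.38%) were lower, against 3.21% and 4.39% of all genes. All 32 lay at or above the median level, where 4.34% of all genes were higher and 5.88% lower. The median of the list was 0.032. NLK, a kinase that phosphorylates FOXO1, was 1.51-fold higher, with an average of 0.54 over its probe sets. SKP2, part of a ubiquitin ligase for FOXO1 and p27, was 1.87-fold lower. The export receptor gene XPO1 and CDK1 were 1.74-fold and 1.69-fold lower, although XPO1 averaged -0.24 over its probe sets.

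TXNIP belongs to the alpha-arrestins, and its relatives differed in direction. ARRDC3, which acts on the trafficking of beta-adrenergic receptors, had 7.03 with IL4, against 8.61 in untreated cells, which is 2.99-fold lower. ARRDC4, which like TXNIP limits glucose uptake, had 7.52 with IL4, against 6.75 in untreated cells, which is 1.71-fold higher. ARRDC2 had a log2 difference of 0.15 and ARRDC1 of -0.29. Both ARRDC3 and ARRDC4 had 1 probe set. They were the only 2 of 21 measured genes of the thioredoxin system and TXNIP relatives past 1.5-fold. The shares of 4.76% higher and 4.76% lower lay near the 3.21% and 4.39% of all genes. TXN, the thioredoxin that TXNIP binds, had -0.10, and MLXIP, which encodes the glucose-sensing activator MondoA of TXNIP, had 0.39. The 4 probe sets of MLXIP differed in sign, between -0.57 and 0.57, and averaged 0.22.

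None of 16 HIF factors, CITED relatives and coactivators reached 1.5-fold, where 3.21% of all genes were higher and 4.39% lower. In a list of 16 genes this lies near the shares of all genes. HIF1A had 12.51 with IL4 and 12.50 in untreated cells. The CITED2 relatives CITED1 and CITED4 had log2 differences of 0.037 and 0.22. ARNT2, the largest difference of the list, had 0.41, and TFAP2A, a partner of CITED2, had -0.36. The 3 probe sets of TFAP2A differed in sign, between -0.36 and 0.46, and averaged -0.022. Of 7 cyclin G relatives and G1 cyclins, 1 (14.3%) was higher and 1 (14.3%) lower, against 3.21% and 4.39% of all genes. Each share of this list is 1 gene. CCNG1, the cyclin G1 gene and a p53 target, was 1.83-fold lower, at 9.91 with IL4 and 10.78 in untreated cells. Its only probe set may bind several transcripts, and without such probe sets 0 genes of this list were lower. CCNE1, the cyclin E1 gene, was 1.67-fold higher. A second probe set of CCNE1 had -0.040.

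**Figure D2:**
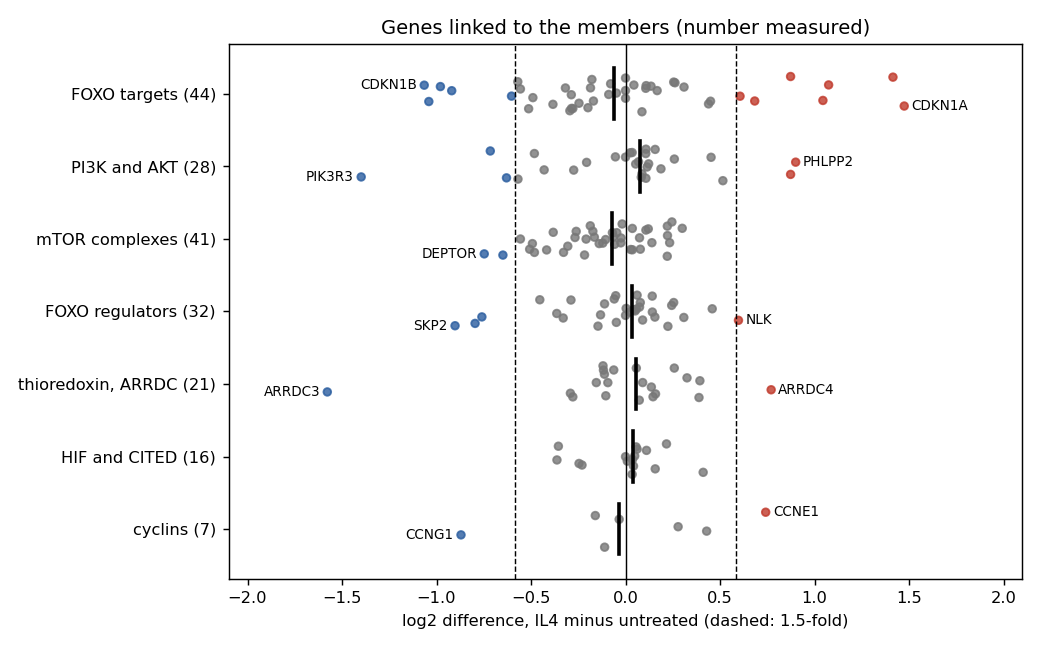
Log2 difference between IL4 and untreated cells (x axis) for the measured genes of 7 linked lists (rows, with their number), with 1 point for each gene spread out within its row. The median of a list is a black bar, and points beyond the dashed 1.5-fold lines are red (higher) or blue (lower). ARRDC3 at -1.58 and CDKN1A at 1.47 are the outermost points.

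In a bulk RNA sample, fewer cells of a type and less RNA per cell cannot be told apart. All 11 markers of lung epithelium and adenocarcinoma lay at or above the median level on the mean of both arrays, and 8 of 11 lay above the 75th percentile on each array. NKX2-1, the lung lineage factor, had 6.91 with IL4 and 7.88 in untreated cells, and the surfactant gene SFTPC lay at 6.60 with IL4 and 6.47 in untreated cells. NKX2-1 was the only one of the 11 at least 1.5-fold lower and CDH1, the E-cadherin gene, the only one at least 1.5-fold higher, at 10.92 with IL4 and 10.18 in untreated cells. Of 9 measured leukocyte markers 1 lay at or above the median level, and PTPRC, which marks all leukocytes, had 2.37 with IL4 and 2.50 in untreated cells. Of 8 fibroblast markers 2 did, with a summed level of 11.33 with IL4 and 10.94 in untreated cells on the log2 scale, nearly all from COL1A1. COL3A1 was the only one past 1.5-fold, at 4.45 with IL4 and 3.67 in untreated cells, and COL1A2, LUM and PDGFRA lay below 5.03 on both arrays as well. At or above the median level were also 2 of 6 endothelial markers and 1 of 2 erythroid ones. The part of the COL1A1 difference of 0.41 and of the NKX2-1 and CDH1 differences of -0.97 and 0.75 in the results above was not tested.

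**Figure D3:**
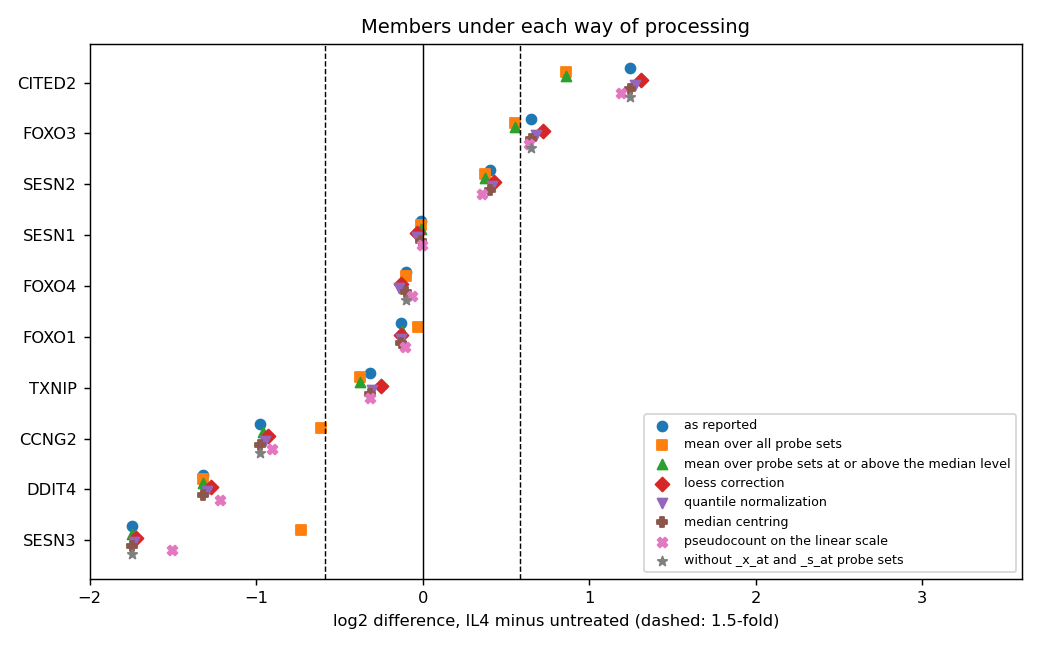
Log2 difference between IL4 and untreated cells (x axis) for the 10 genes of the set (rows) under 8 ways of processing (symbols), with dashed lines at 1.5-fold. SESN3 and CCNG2 lie nearer to 0 when all probe sets are averaged, at -0.73 and -0.61, and FOXO3 then lies inside 1.5-fold.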

How the data were processed

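RNA of IL4-treated and untreated H2228 cells was measured on 1 U133 Plus 2.0 array each. The authors deposited log2 expression values per probe set. For these values RMA is given in the submitters' processing notes, with no version, and GCOS software and a fold filter in the methods of the paper. Without scanner files, other background corrections were not run here. Of 54675 probe sets, 41097 carried 1 gene, and 41043 of these were brought to a current symbol through RefSeq (GRCh38.p14). The same value on both arrays was found in 4528 probe sets (8.28%) and in 0 of the 30 probe sets of the set. That many identical values are unusual for plain RMA, so the exact procedure is uncertain, which bears most on dim values and on differences of exactly 0.

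Each gene was represented by its brightest probe set on the mean of both arrays. The log2 difference was IL4 minus untreated. The level of 1.5-fold is the one in the paper's results for this comparison, while its methods name a 2-fold filter. The genes, the lists and the alternatives were chosen with earlier results of these data known. Named were all 10 genes and, of each list, up to 4 increases and 4 decreases past 1.5-fold at or above the median level, or else the 2 largest differences. Others were named for their role. Dim means a mean under 5.03, which was the median over probe sets. The number of arrays limits the precision. The counting code was tested on simulated data with little noise, which says nothing about the error between cultures or about calls near 1.5-fold. Alternatives were other choices of probe set, a loess correction (fraction 0.3), quantile normalization, median centring, a pseudocount of 16 on the linear scale, a floor at the median and a 2-fold level. Python 3.11.15, numpy 2.4.6, pandas 2.3.3, statsmodels 0.14.6 and matplotlib 3.10.9 were used.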

Additional observations from a re-analysis of the deposited data

How the results depend on the processing

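All 10 genes kept the sign of their log2 difference under every alternative in which they could be measured, and at the 1.5-fold level the only call to change was that of FOXO3, at 0.56 when averaged over its probe sets or over those at or above the median level. Averaging over all probe sets moved SESN3 to -0.73, CCNG2 to -0.61 and CITED2 to 0.86, and averaging over the probe sets at or above the median level also gave 0.86 for CITED2. The number of genes of the set that were higher was then 1 under either average, against 2. At the 2-fold level, where FOXO3 and CCNG2 at -0.98 were no longer past it, 1 was higher and 2 lower, against 2 and 3. Leaving out probe sets that may bind several transcripts removed 5 genes of the set, DDIT4 among them, since they had no other probe set. In the linked lists, 7 genes were higher and 9 lower with averaged probe sets, and 4 were higher and 4 lower at 2-fold, against 11 and 15. Over all genes, 219 were higher and 176 lower at 2-fold. The remaining 105 values, for the set, for the lists counted jointly and for all genes, moved by no more than the limits set. Some counts moved by exactly 1.5 times. The limits were 0.25 on the log2 scale, the spread between probe sets, or 1.5 times for a count. For single lists and their named genes, 275 further values stayed within these limits and 39 moved past them. With averaged probe sets, the mTOR list had 0 lower genes, against 2. The PI3K and AKT list then had 1 lower gene, against 3. Median centring changed nothing, because the median was already 0. Causes were not tested. No paired analysis was possible because each condition has 1 array, and for the same reason no array could be left out. Dim probe sets, among them 10 of the 30, limit what can be read from a gene's further probe sets.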

Other observations

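KLHL24, a gene known to be raised by FOXO factors in other cells, counted as within 1.5-fold by its brightest probe set, 206551_x_at, at 7.92 with IL4 and 8.09 in untreated cells. Its 4 further probe sets were all past 1.5-fold lower, and it is named here because this was seen in the values. On 221985_at it had 5.74 with IL4 and 6.69 in untreated cells, 1.94-fold lower. On 226158_at it had 4.65 with IL4 and 6.38 in untreated cells, a log2 difference of -1.74. The probe sets 221986_s_at and 242088_at, both dim, gave -0.98 and -0.84. The brightest probe set may bind several transcripts, and so may 221986_s_at, which was past 1.5-fold. The part of such binding in the smaller difference of the brightest probe set was not tested.

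FBXO32, which encodes the ubiquitin ligase atrogin-1 and is a FOXO target in muscle, was also named after its values were seen. Its log2 difference was 0.61 on the brightest probe set. All 7 of its probe sets were higher on the IL4 array, with differences between 0.46 and 1.05. KLF6 had log2 differences between 1.04 and 1.07 on 4 of its 5 probe sets and 0.28 on the fifth, dimmest one. PDK4, another FOXO target, was dim on all 3 of its probe sets, with differences of -0.29 and -1.52 and, on one, the same value on both arrays.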
